A study of Mus musculus with 6 samples.

Results

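The genes described here are 10 genes whose products sit in the granules or on the surface of neutrophils, S100a8, S100a9, Camp, Ngp, Mmp8, Mmp9, Retnlg, Csf3r, Clec4d and Trem1, read in RNA sequencing libraries of mouse liver. They were taken by symbol from a table of 29543 gene IDs, in which each of the 10 symbols had 1 row. The table held 3 libraries of livers subjected to ischemia and reperfusion, in which the blood supply of liver tissue is interrupted and then restored (IR injury), and 3 libraries of livers after the laparotomy alone (Sham). The title of the series places the study in hepatic ischemia-reperfusion injury and names Btg2, Fmo1, taurine synthesis and ferroptosis. The sources used here do not give the strain, sex and age of the mice or the times of ischemia and reperfusion. The libraries of a group are called replicate biosamples in the labels without naming animals, and the p-values below cover only the spread among the 3 libraries, technical or not. Hepatocyte transcripts dominated all libraries, with Alb between 36745 and 49549 FPKM, nominally the count of fragments scaled by gene length and library depth. The values here resolved into reads with mates counted singly, as described below. In RNA of whole liver, fewer or more cells of a type and less or more RNA per cell cannot be told apart.

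Neutrophils are short-lived granulocytes that are made in the bone marrow, circulate in blood and enter injured tissue along gradients of chemokines. They carry preformed granules that are filled in order as the cell matures, first the azurophil granules with myeloperoxidase and elastase, then the specific granules with antimicrobial proteins such as cathelicidin, then the gelatinase granules. Transcription of granule genes is therefore largely a feature of the marrow precursors, while receptors and some secreted proteins are transcribed in the mature cell. In liver ischemia and reperfusion, neutrophils are known to adhere in the sinusoids and to release proteases and oxidants.

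All 3 IR libraries exceeded the highest Sham library in each of the 10 genes. The same order was seen in 15.0% of the 27520 genes with a value above 0 in any library, and in 25.4% of the genes with a mean of at least 1 FPKM. The mean ran from 2.03-fold higher in IR for Csf3r to 85.6-fold higher for Trem1. On the log2(FPKM + 1) scale used for the test, the largest rises were those of Retnlg (4.10), S100a9 (3.80) and S100a8 (3.55), while Csf3r rose by 0.66. The median log2 fold change of the 10 was 2.13, against -0.03 over the same 27520 genes, and the 10 genes had been listed with earlier results of these data known. The summed level of the 10 genes was 12.3, 12.6 and 11.1 FPKM in Sham libraries 1, 2 and 3 and 157, 178 and 200 FPKM in IR libraries 1, 2 and 3.

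Genes with a mean of at least 1 FPKM over the 6 libraries were tested with limma, and 8 of the 10 passed that filter. All 8 were called higher in IR at an adjusted p under 0.05, where 24.3% of the 10316 genes tested were called higher and 53.8% lower. Of the 8, Retnlg, Mmp8, Clec4d and Trem1 had a Sham mean under 1 FPKM and passed the filter only through the IR libraries, so that the count accounts for the members and supports nothing. Mmp9 and Camp, with means of 0.517 and 0.895 FPKM over all libraries, stayed under the filter. In a fit with no filter, which called 12.4% of 27520 genes higher, both were called higher. Scaling by median-of-ratios size factors moved the median log2 fold change of the genes tested from -0.23 to 0.0027, and the 8 genes remained higher, with log2 fold changes between 0.85 and 4.29.

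**Figure D1:**
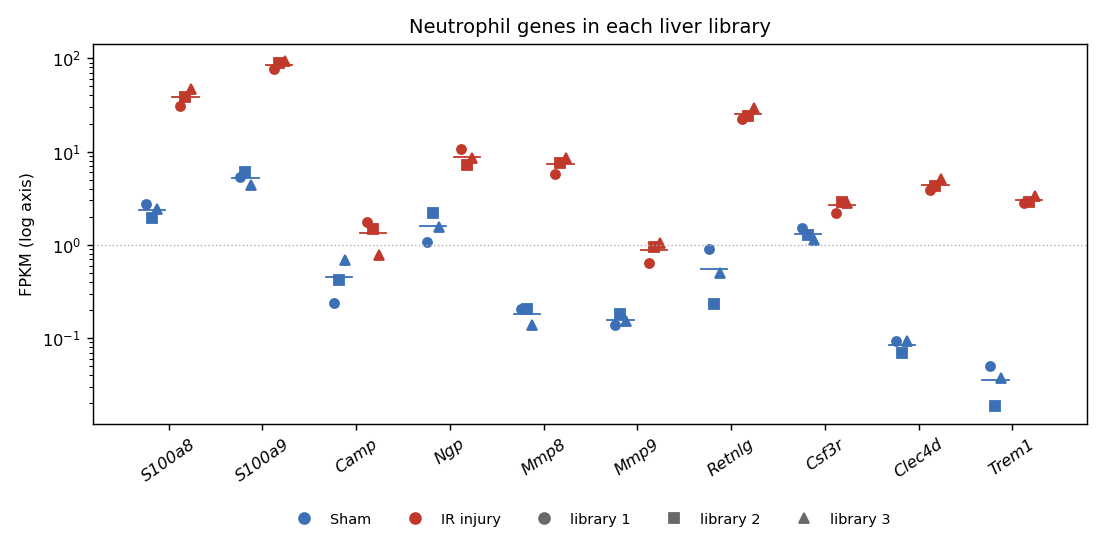
Each point is the FPKM (log axis) of 1 of the 10 genes in 1 library, with Sham in blue, IR injury in red, the marker giving the library number and a bar at the group mean. The dotted line marks 1 FPKM. All red points of a gene lie above all its blue points, and the gap is narrowest for Camp, with 0.689 FPKM in Sham library 3 and 0.781 FPKM in IR library 3.

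S100a8 and S100a9 encode the calcium-binding subunits of calprotectin, the most abundant cytosolic protein complex of neutrophils, which is released on injury, binds zinc and manganese and can signal through Toll-like receptor 4. S100a8 stood at 2.74, 1.95 and 2.42 FPKM in Sham libraries 1, 2 and 3 and at 30.7, 38.6 and 47.2 FPKM in IR libraries 1, 2 and 3. S100a9 stood at 5.34, 6.09 and 4.39 FPKM in the Sham libraries and at 76.3, 88.3 and 93.2 FPKM in the IR libraries. In both genes IR library 1 was the lowest and IR library 3 the highest of the injured group, and every IR library exceeded the highest Sham library by at least 11.2-fold.

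The group means of S100a8 were 2.37 ± 0.400 and 38.8 ± 8.25 FPKM (SD, n = 3), a ratio of 16.4, with a log2 fold change of 3.55 (SE 0.154, limma adjusted p = 5.95e-07). Those of S100a9 were 5.27 ± 0.849 and 85.9 ± 8.66 FPKM, a ratio of 16.3, with a log2 fold change of 3.80 (SE 0.112, adjusted p = 1.04e-07). Ordered by mean FPKM among all gene IDs, S100a9 moved from place 4829 in Sham to place 440 in IR, and S100a8 from place 7746 to place 871. The ratio of S100a9 to S100a8 within a library was 1.95, 3.13 and 1.82 in Sham and 2.49, 2.29 and 1.98 in IR. These ranges overlapped.

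The 2 genes lie on chromosome 3 of mm10, S100a8 (ENSMUSG00000056054) at 90668978 to 90670035 on the plus strand and S100a9 (ENSMUSG00000056071) at 90692632 to 90695721 on the minus strand, 22.6 kb apart (GENCODE M21). Of 11 other S100 genes in the table, 6 were tested, of which S100a10 (log2 fold change 2.35), S100a11 (1.24) and S100a6 (0.35, adjusted p = 0.0430) rose. S100a16 (-0.65), S100a13 (-0.52) and S100a1 (-0.34) fell, although S100a1 lost its call when median-of-ratios scaling was applied (-0.04, adjusted p = 0.623) and S100a6 did not pass with no filter (adjusted p = 0.107). S100a10, the partner of annexin A2, is expressed in many cell types and stood at 20.1 to 22.4 FPKM in Sham and 109 to 122 FPKM in IR. S100a4 was listed at no more than 0.0639 FPKM in any library.

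To show what lies in front of the members with the largest changes on the log2(FPKM + 1) scale, the 250 bases before the RefSeq start site (GRCm38.p6) are printed for 4 of them. By the ratio of means the order was another, with Trem1 (85.6) and Clec4d (51.3) first. Capitals mark matches to 4 short motifs, the C/EBP core TTGCNNAA, the ETS core GGAAGT and the NF-kappaB core (GGGA and TTCC with any 2 bases between them) on either strand, and the TATA box TATAAA on the gene's strand. The window of S100a8 is chr3:90668821-90669070 on the plus strand, that of S100a9 chr3:90695722-90695971 on the minus strand, that of Retnlg chr16:48872358-48872607 on the plus strand and that of Mmp8 chr9:7558179-7558428 on the plus strand.
S100a8: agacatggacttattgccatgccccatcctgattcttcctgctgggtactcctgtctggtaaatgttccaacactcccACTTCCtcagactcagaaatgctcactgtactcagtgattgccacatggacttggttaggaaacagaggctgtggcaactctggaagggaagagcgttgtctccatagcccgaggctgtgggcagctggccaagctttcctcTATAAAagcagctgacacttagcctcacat
S100a9: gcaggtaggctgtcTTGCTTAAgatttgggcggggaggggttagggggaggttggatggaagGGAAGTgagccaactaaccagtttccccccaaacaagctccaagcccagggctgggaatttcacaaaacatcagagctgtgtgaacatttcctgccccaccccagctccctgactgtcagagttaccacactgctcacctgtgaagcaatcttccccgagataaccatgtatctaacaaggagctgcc
Retnlg: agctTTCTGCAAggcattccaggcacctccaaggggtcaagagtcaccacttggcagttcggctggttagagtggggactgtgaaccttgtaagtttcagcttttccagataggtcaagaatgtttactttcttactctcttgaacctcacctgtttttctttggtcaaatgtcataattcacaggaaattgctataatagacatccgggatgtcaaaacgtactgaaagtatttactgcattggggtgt
Mmp8: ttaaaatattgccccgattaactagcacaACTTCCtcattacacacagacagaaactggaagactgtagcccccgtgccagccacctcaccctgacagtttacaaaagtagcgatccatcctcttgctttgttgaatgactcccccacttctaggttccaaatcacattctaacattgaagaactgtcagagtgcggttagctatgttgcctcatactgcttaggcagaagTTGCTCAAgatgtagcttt
S100a8 held a TATA box 30 to 25 bases before its start and an ETS core, while S100a9 and Mmp8 each held a C/EBP and an ETS core and Retnlg a C/EBP core. RefSeq gave a window for 9 of the 10 genes. The C/EBP core was found in 4 of the 9 windows (S100a9, Retnlg, Mmp8 and Ngp), against 9.56% of 32851 windows of the same length in all genes. The ETS core was found in 5 of the 9 (S100a8, S100a9, Mmp8, Clec4d and Trem1), against 19.7% of windows. The TATA box was in S100a8 only, against 7.59%, and the NF-kappaB core in Csf3r only, against 1.21%. The matches did not overlap one another in these windows. They describe letters only, and no binding was measured.

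Camp, Ngp and Mmp8 belong to the specific granules. Camp encodes the cathelicidin precursor of an antimicrobial peptide, Ngp the neutrophilic granule protein, which is related in sequence to cathelicidins, and Mmp8 neutrophil collagenase. Ngp (ENSMUSG00000032484, mm10 chromosome 9, 110419747 to 110423012, plus strand) stood at 1.07, 2.18 and 1.54 FPKM in the Sham libraries and at 10.6, 7.20 and 8.60 FPKM in the IR libraries. Its groups were far apart, 1.60 ± 0.557 against 8.80 ± 1.71 FPKM, a ratio of 5.52, with a log2 fold change of 1.92 (SE 0.175, adjusted p = 2.73e-05). Unlike S100a8, Ngp was highest in IR library 1.

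Camp (ENSMUSG00000038357, mm10 chromosome 9, 109847379 to 109849617, minus strand, 570 kb from Ngp) stood at 0.237, 0.423 and 0.689 FPKM in the Sham libraries and at 1.75, 1.49 and 0.781 FPKM in the IR libraries. The groups came close, with IR library 3 at 1.13 times the level of Sham library 3. The means were 0.450 ± 0.227 and 1.34 ± 0.501 FPKM, a ratio of 2.98. With no filter the log2 fold change was 0.68 (SE 0.194, adjusted p = 0.0315), and Camp did not pass without IR library 1 (adjusted p = 0.112), IR library 2 (0.127), Sham library 1 (0.125) or Sham library 2 (0.114). Over the alternatives tried its adjusted p ran from 0.00553 to 0.127.

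Mmp8 (ENSMUSG00000005800, mm10 chromosome 9, 7558456 to 7568485, plus strand) stood at 0.204, 0.207 and 0.138 FPKM in the Sham libraries and at 5.74, 7.57 and 8.63 FPKM in the IR libraries. No IR library was less than 27.7 times as high as the highest Sham library. The means were 0.183 ± 0.0387 and 7.31 ± 1.46 FPKM, a ratio of 39.9, and the log2 fold change was 2.80 (SE 0.122, adjusted p = 6.18e-07).

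Mmp9 (ENSMUSG00000017737) encodes gelatinase B, the protease that gives the gelatinase granules their name. It lies on mm10 chromosome 2 at 164940780 to 164955850, plus strand, and stood at 0.140, 0.181 and 0.153 FPKM in the Sham libraries and at 0.635, 0.947 and 1.05 FPKM in the IR libraries. The groups did not overlap, with means of 0.158 ± 0.0211 and 0.876 ± 0.214 FPKM, a ratio of 5.55. With no filter the log2 fold change was 0.69 (SE 0.0902, adjusted p = 0.00125). Mmp8 and Mmp9 were thus at like levels in Sham, with a ratio of Mmp8 to Mmp9 of 1.46, 1.14 and 0.906, and apart in IR, with ratios of 9.04, 7.99 and 8.25.

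Retnlg encodes resistin-like gamma, a small secreted protein of mouse neutrophils and marrow (ENSMUSG00000022651, mm10 chromosome 16, 48872621 to 48874496, plus strand). It stood at 0.910, 0.235 and 0.503 FPKM in the Sham libraries and at 22.4, 24.3 and 29.1 FPKM in the IR libraries. The Sham libraries varied most here, with a coefficient of variation of 61.9%, against 13.8% in IR, and each IR library was at least 24.6 times as high as Sham library 1. The log2 fold change was 4.10 (SE 0.161, adjusted p = 3.80e-07), and 28 of the 10316 genes tested had a larger one. Of its relatives, Retn was listed at 0 in all 6 libraries, Retnlb had no row under that symbol, and Retnla reached no more than 0.0582 FPKM.

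Csf3r, Clec4d and Trem1 encode receptors. Csf3r (ENSMUSG00000028859) is the receptor of granulocyte colony-stimulating factor, which drives the production and release of neutrophils, and its gene lies on mm10 chromosome 4 at 126024550 to 126044440, plus strand. It stood at 1.52, 1.27 and 1.13 FPKM in the Sham libraries and at 2.22, 2.89 and 2.84 FPKM in the IR libraries. The lowest IR library was 1.46 times the highest Sham library. The log2 fold change was 0.66 (SE 0.0960, adjusted p = 0.000388), from means of 1.31 ± 0.199 and 2.65 ± 0.376 FPKM.

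Clec4d is a C-type lectin that takes part in the recognition of mycobacteria and fungi and signals with the Fc receptor gamma chain (ENSMUSG00000030144, mm10 chromosome 6, 123262111 to 123275265, plus strand). It stood at 0.0938, 0.0697 and 0.0933 FPKM in the Sham libraries and at 3.89, 4.25 and 5.03 FPKM in the IR libraries. The groups were 41.5-fold apart at their nearest. The log2 fold change was 2.31 (SE 0.0822, adjusted p = 2.39e-07), from means of 0.0856 ± 0.0137 and 4.39 ± 0.585 FPKM.

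Trem1 is an amplifier of inflammatory responses that signals through the adaptor Tyrobp (ENSMUSG00000042265, mm10 chromosome 17, 48232768 to 48246924, plus strand). It stood at 0.05004, 0.0186 and 0.0373 FPKM in the Sham libraries and at 2.82, 2.90 and 3.35 FPKM in the IR libraries. Even the nearest libraries of the groups were 56.4-fold apart. The log2 fold change was 1.96 (SE 0.0674, adjusted p = 2.02e-07). A processed pseudogene, AC241601.2, overlaps Trem1 on the opposite strand, listed at 0 in the Sham libraries with an IR mean of 0.124 FPKM, and how strand was handled is not stated in the sources used here.

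The depth behind the low values was read from the file itself. FPKM multiplied by exon length and by a total per library gave whole reads, mates counted singly, for 98.3% of the listed genes with a GENCODE M21 length, within 0.05 of a whole number, and the rebuilt totals were 53622229 to 71752584 reads in Sham and 54042831 to 68922517 reads in IR. At this depth Trem1 rested on 10, 4 and 6 reads in Sham libraries 1, 2 and 3 and on 485, 599 and 543 reads in the IR libraries. Clec4d rested on 10, 8 and 8 reads in Sham against 357, 468 and 435 in IR. Taking pairs of reads as the unit, the depth-scaled ratio of IR to Sham was 86.8 for Trem1 with an exact 95% interval of 47.0 to 182, and 51.7 for Clec4d with an interval of 30.0 to 97.6.

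Retnlg had 62 Sham reads in all and a ratio of 46.2 (32.4 to 68.2), and Mmp8 87 Sham reads and a ratio of 38.7 (28.7 to 53.5). The intervals of Trem1, Clec4d, Retnlg and Mmp8 overlapped one another, and all 4 lay above those of S100a8 (13.9 to 19.3) and S100a9 (14.2 to 18.2). Lower still were Mmp9 (4.06 to 7.40), Ngp (4.57 to 6.28) and Camp (2.05 to 4.78), and Csf3r was at 1.80 to 2.27. These intervals cover counting error only, which leaves out the spread between libraries, and reads copied by PCR are not independent molecules. Because the pseudocount of 1 compresses low values, limma voom on the rebuilt reads with no filter put the rise of Trem1 at 6.43 (SE 0.472), of Retnlg at 5.70 (SE 0.412), of Clec4d at 5.61 (SE 0.424) and of Mmp8 at 5.27 (SE 0.375) on the log2 scale. S100a8 was at 4.03, S100a9 at 4.01, Ngp at 2.48, Mmp9 at 2.43, Camp at 1.66 and Csf3r at 1.01 in that fit, which called 13.5% of 26610 genes higher.

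**Figure D2:**
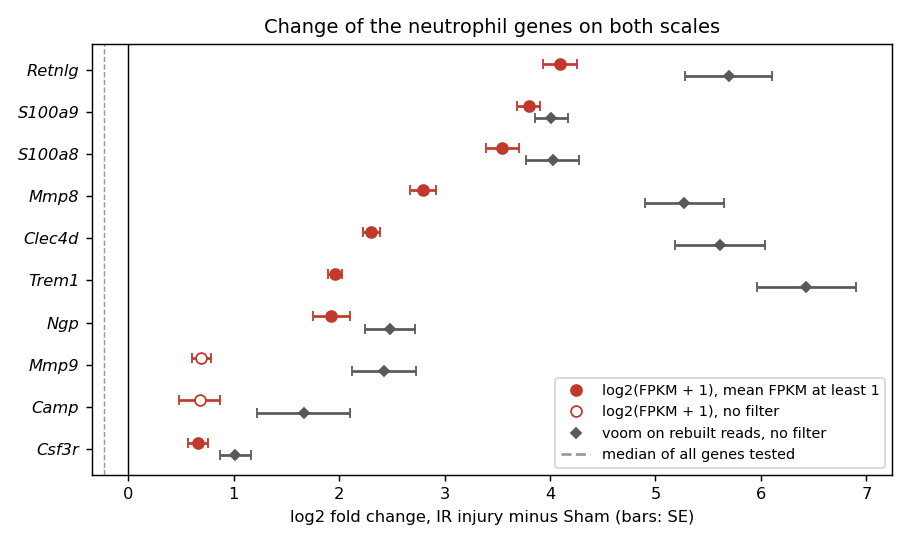
Log2 fold change of each gene, IR injury minus Sham, with bars of 1 SE. Red circles are limma on log2(FPKM + 1), filled for the 8 genes with a mean of at least 1 FPKM and open for Mmp9 and Camp without the filter, and grey diamonds are voom on rebuilt reads without the filter. Trem1, Clec4d and Mmp8 move furthest to the right between the scales, and the dashed line is the median of all genes tested at -0.23.

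Proportions between the genes were compared within each library. The pairs described next were chosen after the values were seen and are given without a test. Per FPKM of Ngp, S100a8 stood at 2.57, 0.894 and 1.57 in Sham and at 2.89, 5.37 and 5.48 in IR. Mmp8 stood at 0.191, 0.0950 and 0.0898 of Ngp in Sham and at 0.541, 1.05 and 1.00 in IR. Both ratios were higher in every IR library than in any Sham library, though Sham library 1 came near IR library 1 for S100a8.

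Retnlg stood at 0.853, 0.108 and 0.326 of Ngp in Sham and at 2.11, 3.37 and 3.38 in IR, while S100a8 per FPKM of Csf3r went from 1.80, 1.53 and 2.15 to 13.8, 13.3 and 16.6. The ratio of Ngp to Camp, both of the specific granules, was 4.50, 5.15 and 2.24 in Sham and 6.07, 4.82 and 11.01 in IR, and these ranges overlapped.

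**Figure D3:**
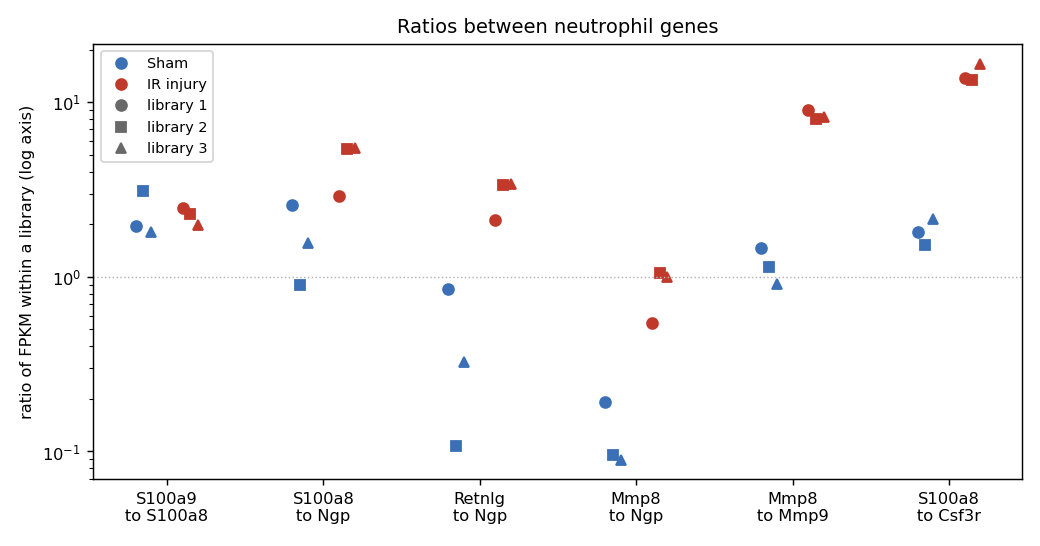
Ratio of FPKM (log axis) between pairs of the genes within each library, Sham in blue and IR injury in red, with markers for the library numbers. The ratio of S100a9 to S100a8 overlaps between groups, whereas the other 5 ratios are higher in all IR libraries, the ratio of S100a8 to Ngp by the smallest gap (2.57 in Sham library 1 against 2.89 in IR library 1).

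Within the injured group the libraries were ordered alike in most of the genes. IR library 1 was the lowest for 8 of the 10 and IR library 3 the highest for 7, while Ngp and Camp were highest in IR library 1. Markers of sinusoidal endothelial cells had the same order, with summed levels of 32.4, 48.5 and 68.4 FPKM in IR libraries 1, 2 and 3 against 44.2 to 50.3 FPKM in Sham, carried in IR mostly by the hyaluronan receptor Lyve1 at 22.4, 33.7 and 48.6 FPKM. Lyve1 rose (1.54), while the other 5 of the list, Kdr (-2.05), Oit3 (-1.49), Stab2 (-1.20), Clec4g (-1.03) and Stab1 (-0.34), fell, with Stab1 no longer called with size factors (adjusted p = 0.501). Each of these 5 was also lowest in IR library 1 and highest in IR library 3 of the injured group. The same order was found for the sum of the 5 stellate cell markers, at 13.9, 15.6 and 20.0 FPKM in IR against 35.2 to 39.2 FPKM in Sham. The sums of leukocytes in general, monocytes, T, natural killer and dendritic cells, and basophils with mast cells had this order too. So did the other neutrophil markers without Lcn2. Those of Kupffer, B, erythroid and dividing cells, eosinophils, platelets and hepatocytes did not. None of the endothelial and stellate cell markers was at 0. The part of any of these cell types in the order of the libraries was not tested. Without IR library 3, S100a8 was higher by 3.40 and S100a9 by 3.74 on the log2 scale.

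Other proteins of the granules gave a mixed picture. Of 8 azurophil granule genes none was called higher, with or without the filter. Those under the filter stood at no more than 0.825 FPKM in any library, where the pseudocount of 1 compresses changes. Mpo, the gene of myeloperoxidase, stood at 0.0788, 0.155 and 0.103 FPKM in Sham and at 0.234, 0.110 and 0.162 FPKM in IR, overlapping. Elane, the gene of neutrophil elastase, stood at 0.170 to 0.208 FPKM in Sham and 0.244 to 0.354 FPKM in IR, with no filter at an adjusted p of 0.0950. Ctsg stood at 0.0361 to 0.0871 FPKM in Sham and 0.107 to 0.320 FPKM in IR, with no filter at an adjusted p of 0.108. All IR libraries were above all Sham libraries for 2 of the 8 genes, Elane and Ctsg, and below them for 2, Gusb and Ctsc. Gusb and Ctsc, lysosomal enzymes of many cells and the only 2 of the list that were tested, were lower (-0.16 and -0.32), but neither was called after median-of-ratios scaling (adjusted p = 0.0787 with the opposite sign for Gusb and 0.746 for Ctsc).

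Of 10 further specific granule genes 6 were tested, of which 3 rose and 3 fell, and Cyba lost its call when size factors were applied. Lcn2, the gene of lipocalin 2 and also an acute phase product of hepatocytes, rose from 6.97 ± 0.290 to 706 ± 43.2 FPKM (6.47). The protease inhibitor Slpi (1.85) and haptoglobin, Hp (1.46), a plasma protein of hepatocytes, rose too. Ltf, the gene of lactoferrin and a defining specific granule gene, was under the filter at 0.169 to 0.319 FPKM in Sham and 0.845 to 1.15 FPKM in IR, and passed with no filter (0.70, adjusted p = 0.000721). So did the surface protein gene Cd177 (0.75, adjusted p = 0.00236). Lysozyme, Lyz2 (-0.73), and the NADPH oxidase subunit Cybb (-1.14), both also expressed by macrophages, fell, and Cyba was lower (-0.24), with the sign turned by median-of-ratios scaling (0.04).

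Of 7 tested genes of gelatinase granules and secretory vesicles 6 rose, 1 did not pass and none fell. They were the metalloprotease Adam8 (1.35), the formyl peptide receptors Fpr2 (1.14) and Fpr1 (0.55), Cd63 (0.95), the ion transporter Slc11a1 (0.86) and the integrin chain Itgb2 (0.48). Its partner chain Itgam stood at 0.155 to 0.194 FPKM in Sham and 0.805 to 0.904 FPKM in IR, under the filter.

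Of 10 tested receptors that guide neutrophils, Fc receptors and adhesion molecules, Fpr1 and Fpr2 among them, 9 rose and 1 fell. Of the 9, Il1r2, C5ar1 and Cxcr2 passed the filter only through the IR libraries. The same holds for Adam8, Socs1, Selp, Timp1, S100a6 and the platelet marker Itga2b in the other lists. Icam2, Mmp2, Cebpe, the endothelial marker Kdr, the stellate markers Reln and Col1a1 and the dendritic marker Clec9a passed only through the Sham libraries. The counts of all these lists are therefore descriptions. The decoy interleukin-1 receptor Il1r2 rose from 0.0264 ± 0.0152 to 5.76 ± 0.804 FPKM (2.71), the complement receptor C5ar1 from 0.444 ± 0.0616 to 3.72 ± 0.324 FPKM (1.71) and the chemokine receptor Cxcr2 from 0.0759 ± 0.0253 to 2.03 ± 0.479 FPKM (1.48). The Fc receptor genes Fcgr3 (1.16) and Fcgr4 (1.00) rose from higher Sham levels, while Itgal, the LFA-1 chain carried by lymphocytes too, fell by 0.66. Ly6g, the antigen by which mouse neutrophils are sorted, stood at 0.0318, 0 and 0 FPKM in Sham and at 0.0370, 0.616 and 0.354 FPKM in IR. It missed the threshold with no filter (adjusted p = 0.0999).

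Of the neutrophil chemoattractants and growth factors, 4 were tested and called higher, but Cxcl2, Il1b and Ccl4 had Sham means under 1 FPKM and passed the filter only through the IR libraries, so that this count is a description. Cxcl1 stood at 5.04, 3.67 and 4.37 FPKM in Sham and 108, 129 and 124 FPKM in IR (4.50, adjusted p = 3.94e-08), and Cxcl2 at 0.0472 to 0.216 FPKM and 8.97 to 9.59 FPKM (3.21). Il1b rose by 2.46 and Ccl4 by 1.09. Cxcl3 was listed at 0 in the 3 Sham libraries and at 0.488 to 0.577 FPKM in IR. Csf3, the ligand of the Csf3 receptor, was listed at 0, 0.0197 and 0 FPKM in Sham and at 0.543, 0.626 and 0.537 FPKM in IR and passed with no filter (0.64, adjusted p = 3.44e-05), while Tnf did not (adjusted p = 0.347). Of 13 tested genes of signalling from that receptor, Csf3r included, 9 rose and 3 fell (10 and 2 with size factors), led by Socs3 (4.87), Socs1 (2.79), Stat3 (1.94) and Cebpb (1.64), which other cytokines of the injured liver are also known to induce. Of the endothelial partners, P-selectin, Selp (1.15), and Icam1 (0.99) rose, Icam2 was lower (-0.39) and lost its call with size factors (adjusted p = 0.0746). Vcam1 was not called (6.15 ± 0.214 against 6.06 ± 0.385 FPKM) but was called higher with size factors (0.24, adjusted p = 0.00392).

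The relatives of Clec4d and Trem1 did not all move their way. Of 9 tested receptors and adaptors of both families, the 2 members included, 7 rose and 1 fell. Clec4e, the partner of Clec4d on the same chromosome, was under the filter at 0.0242 to 0.0561 FPKM in Sham and 1.14 to 1.42 FPKM in IR (1.11 with no filter, adjusted p = 3.89e-05), and the related lectin Clec4n rose (1.18). Clec7a, the beta-glucan receptor, fell (-0.98), and Clec4a2 fell with no filter (-0.65, adjusted p = 0.00362). The gamma chain adaptor Fcer1g rose (0.99), as did the kinase Syk (0.62). Tyrobp, the adaptor of Trem1, stood at 23.7 ± 1.78 and 21.2 ± 2.23 FPKM and did not pass. Next to Trem1 on chromosome 17, Trem3 was higher with no filter (0.60, adjusted p = 0.000444), Treml4 rose (0.24, adjusted p = 0.00415) and Trem2, a macrophage receptor, was lower with no filter (-0.07, adjusted p = 0.0426).

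Receptors of the S100a8 and S100a9 complex and the inhibitors of Mmp8 and Mmp9 were read alongside. Cd14, the co-receptor of Toll-like receptor 4, rose from 2.78 ± 0.181 to 263 ± 41.3 FPKM (6.12), and Ly96 (0.95) and Myd88 (0.76) rose. Tlr4 itself was under the filter at 0.346 to 0.373 FPKM in Sham and 0.687 to 0.839 FPKM in IR (0.36 with no filter, adjusted p = 0.00228), while Cd36 (-1.39) and Bsg (-0.51) fell. Timp1, an inhibitor of Mmp9, rose from 0.338, 0.424 and 0.567 FPKM to 1.80, 2.81 and 4.67 FPKM (1.45), Timp2 fell (-0.90), and Timp3 did not pass (adjusted p = 0.0857), so that of 6 tested inhibitors and partners, Lcn2 and Slpi included, 3 rose and 1 fell. Of 16 other matrix metalloproteinases 4 were tested, of which Mmp19 rose (0.50), Mmp15 (-1.44) and Mmp2 (-0.60) fell and Mmp14 did not pass. Mmp7 stood at 0.144 to 0.182 FPKM in Sham and 1.16 to 1.58 FPKM in IR and passed with no filter (1.05, adjusted p = 0.000146).

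Of 6 tested transcription factors of granulocytes, Cebpd (1.98) and Cebpb (1.64) rose. Cebpe, which drives the specific granule genes in marrow precursors, fell from 2.59 ± 0.195 to 0.622 ± 0.0687 FPKM (-1.15, adjusted p = 2.08e-06). Cebpa, also a factor of hepatocytes, was lower (-0.30) but flat with size factors (0.0024, adjusted p = 0.977). Spi1 and Irf8 did not pass, although Spi1 was called higher with size factors (0.33, adjusted p = 0.000407). Of the NADPH oxidase, Ncf4 (0.39) and Ncf1 (0.25) rose and Cybb and Cyba are given above.

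Markers of other cells were compared over the same libraries, as sums of FPKM over each list. The 9 neutrophil markers outside the 10 genes other than Lcn2, of which Hdc and Stfa2l1 are in none of the lists above, summed to 3.32 to 3.65 FPKM in Sham and 16.8 to 22.8 FPKM in IR. Hdc, the histidine decarboxylase gene, made up most of the Sham sum and rose from 2.69 ± 0.0432 to 8.23 ± 1.53 FPKM (1.31). Of 7 genes of leukocytes in general, Cd53 rose (1.01), Lcp1 (-0.48) and Cd52 (-0.34) fell and 4 did not pass, while size factors gave 4 higher and 1 lower. Ptprc, the gene of CD45 on all leukocytes and named after its values were seen, stood at 1.07, 1.06 and 1.04 FPKM in Sham and 0.894, 1.07 and 1.05 FPKM in IR. The list's sum was 40.7 to 43.5 FPKM in Sham and 44.0 to 50.6 FPKM in IR.

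Of 8 monocyte markers the 4 tested were called higher, led by Chil3, also a gene of neutrophil precursors (2.55), and Plac8 (1.60), although Chil3 and Ms4a4c passed the filter only through the IR libraries. With no filter F13a1 (1.23), Ly6c2 (0.64) and Ccr2 (0.42) were called higher as well, whereas Cx3cr1, a receptor of patrolling monocytes and some macrophages, fell from 0.304 to 0.0218 FPKM (-0.35, adjusted p = 0.00047). The list's genes had a sum, mostly Fn1, of 127 to 151 FPKM in Sham and 201 to 220 FPKM in IR. Kupffer cell markers fell in 9 of 11 and rose in none, with sums of 361 to 371 FPKM in Sham and 196 to 247 FPKM in IR, and with size factors 7 fell. Adgre1 (-1.79), Vsig4 (-1.38) and Csf1r (-1.32) fell most. Markers of B cells summed to 2.41 to 2.59 FPKM in Sham and 0.719 to 1.05 FPKM in IR, those of natural killer cells to 3.96 to 4.65 FPKM and 1.53 to 2.31 FPKM, and those of T cells to 3.93 to 6.40 FPKM and 2.01 to 4.14 FPKM. Lists of eosinophils (6.47 to 7.96 against 3.42 to 3.73 FPKM), dendritic cells (2.93 to 3.27 against 1.43 to 1.58 FPKM) and dividing cells (2.66 to 3.23 against 1.81 to 2.08 FPKM) were lower in all IR libraries. Those of T cells, platelets, erythroid cells and basophils with mast cells overlapped between the groups. No gene of these lists was at 0 in all libraries, though Epx of eosinophils and Ms4a2 of basophils and mast cells were each listed at 0 in 5 of 6. The part of these cells in the levels of the 10 genes was not tested.

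**Figure D4:**
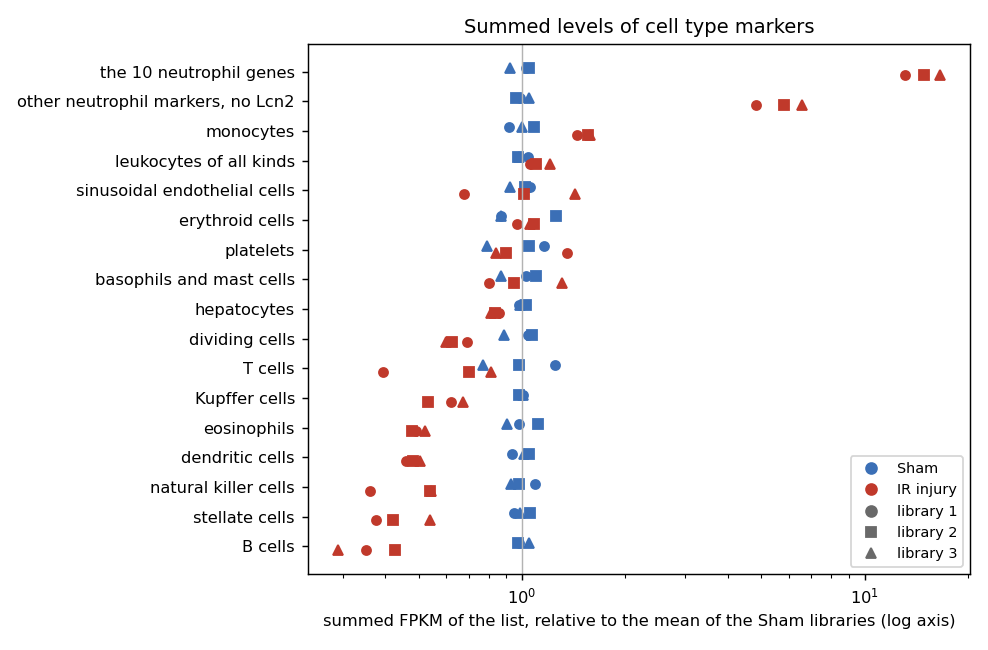
Summed FPKM of each marker list in each library, divided by the mean of the 3 Sham libraries (log axis), Sham in blue and IR injury in red. The 10 genes and the other neutrophil markers without Lcn2 stand furthest to the right in IR, monocyte markers lie above Sham, and the lists of Kupffer, B, natural killer, dendritic and stellate cells lie below it in all 3 IR libraries.

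Genes with a pattern most like that of S100a8 and S100a9 were sought over the 6 libraries by the root mean square difference of centred log2(FPKM + 1) from the mean of both. The nearest of the tested genes outside the 10 was Thbs1, at a difference of 0.0917, followed by Fbf1 (0.114), Serpina3n (0.125), Tacc2 (0.136), Rnd1 (0.139), Srxn1 (0.157), Igfbp1 (0.165) and Tnfrsf12a (0.174). S100a8 and S100a9 themselves were each 0.122 from their mean, Retnlg was at 0.269, Mmp8 at 0.439 and Csf3r at 1.51. Levels differed widely among these genes, from 0.414 FPKM in Sham for Thbs1 to 253 FPKM for Serpina3n, and the measure mostly reflects the size of the change between the groups. The order within IR was not shared by all, since Srxn1 and Tnfrsf12a were highest in IR library 1 and Fbf1 and Rnd1 in IR library 2.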

How the data were processed

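Libraries were made from total RNA of mouse liver with a SMARTER kit, per the labels' protocols, and grouped by sample title. The authors deposited FPKM values for 29543 gene IDs with symbols. The submitters' processing notes name build mm10, while aligner, counter, annotation and strand handling are absent from the sources used here. Coordinates and exon lengths came from GENCODE M21, which held 28977 of the IDs.

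Genes averaging 1 FPKM or more were tested on log2(FPKM + 1) with limma 3.58.1 in R 4.3.3 (eBayes with a trend, two-sided, Benjamini-Hochberg adjustment over all 10316 genes, threshold 0.05). Fold changes on that scale understate the change of low genes. Reads were rebuilt as FPKM times exon length times library total, for depth, counting intervals and voom. Libraries of a group differed beyond the sampling noise of independent reads (median chi-square of 1.91 to 3.88 per pair of libraries, against 0.455). Mates were counted singly, which raises the chi-square, so that the excess is overstated. Promoters are those of RefSeq for GRCm38.p6.

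The members and all lists were chosen with earlier results of these data known. Named are the 10 members, the genes of the granule, receptor, S100, metalloproteinase, resistin, inhibitor and chemoattractant lists, up to 4 called genes of the largest change from every other list, and the 8 genes nearest in pattern. Stfa2l1, Stab1, Clec4g, F13a1, Ly6c2, Ccr2, Cx3cr1, Epx, Ms4a2, Vcam1, Spi1, Irf8, Ptprc and the pseudogene at Trem1 lie outside that rule and were named after their values were seen. Alternatives were other pseudocounts, filters and scalings, a robust fit, voom, a replicate block and leaving out each library.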

Additional observations from a re-analysis of the deposited data

How the results depend on the processing

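The 8 members in the test kept their direction and their call in all 116 of their values under the alternatives in which they could be tested. Retnlg, Mmp8, Clec4d and Trem1 entered the test at 1 FPKM only through the IR libraries. The counts of members in this paragraph are therefore descriptions and support nothing. With a filter at a mean of 5 FPKM, 4 members were left to test and 4 were called higher. That fit called 1359 of 4892 genes higher (27.8%) and 2573 lower. Of these members, S100a8, Retnlg and Ngp had Sham means under 5 FPKM (2.37, 0.549 and 1.60). They passed this filter only through the IR libraries, so that this count supports nothing. Median-of-ratios scaling called 3939 genes higher, in place of 2505, and 3934 lower, in place of 5548, so that the share of higher calls rose from 31.1% to 50.03%. No filter called 8843 genes lower. Leaving out 1 library at a time left 8 members called, 2335 to 2479 genes higher and 5248 to 5530 lower. With the replicate number as a block, 8 members, 2473 genes higher and 5491 lower were called. The correlation of the deviations of same-numbered libraries was -0.04, 0.01 and -0.10, and that of other numbers ran from -0.05 to 0.10. No deviation shared by number was seen, but with 3 libraries per group this cannot decide whether the numbers pair the samples. Camp, tested only without the filter, was not called in 5 of 10 alternatives, chosen after the data were seen, which were the 4 libraries left out that are named above and the replicate block (adjusted p = 0.0946). Mmp9 was called in all 10 (adjusted p at most 0.0124). Few reads in Sham limit the folds of Trem1, Clec4d, Retnlg and Mmp8.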
